A study of Homo sapiens with 10 samples.

Results

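The 48 genes described here make proteins that copy DNA in S phase or that run mitosis. They were taken from a list of proliferation genes, and all 48 are among the 61533 genes of the count tables. By the same list, 13 act in replication (MCM2 to MCM7, CDC6, CDT1, GINS2, PCNA, TYMS, RRM2 and E2F1) and the other 35 act in mitosis. The question was how these genes differed between T24, a line of human bladder cancer cells, and its cisplatin-resistant derivative T24R2, and whether the replication genes differed in the same way as the mitosis genes. T24R2 was derived from T24 by stepwise exposure to the drug in another laboratory, and 5 RNA-seq libraries of each line came from day 3 of culture in RPMI medium. The methods keep T24R2 in medium with cisplatin, whereas the labels give the same medium without drug for both lines, so effects of the line and of the drug cannot be told apart. T24R2 is a single derived line. The methods refer to independent experiments in general but do not tie the 5 libraries of a line to separate cultures, so p-values measure the spread between these samples, which may be technical.

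Total counts were 9257843 to 10840954 per library, and the 20 pairs of libraries within a line differed beyond counting noise (chi-square over degrees of freedom of 2.01 to 7.04). The keratins KRT7, KRT8 and KRT18, which mark epithelial cells, were present in both lines and called lower in T24R2, while KRT19 had 267 ± 7.23 CPM in T24 and at most 3 counts in any T24R2 library (summed keratins 4817 to 5550.0 CPM in T24 and 2980.0 to 3177 in T24R2). Of 10 urothelial markers, 4 passed the count filter (GATA3, FOXA1, UPK2 and PPARG) and were called lower in T24R2, while KRT20 had 0 counts and UPK1A, UPK1B, UPK3A, UPK3B and KRT5 had at most 11 counts in any library (summed markers 173 to 181 CPM in T24 and 39.3 to 47.5 in T24R2). None of 5 leukocyte markers passed the filter (0 of 5, at most 17 counts, summed 1.14 to 2.10 CPM in T24 and 0.294 to 2.87 in T24R2). Of 4 endothelial markers, CDH5 and PECAM1 passed and were lower in T24R2, with CDH5 at 239 ± 22.3 CPM in T24 and 0.559 ± 0.310 CPM in T24R2, while VWF and CLDN5 had at most 8 counts (summed 225 to 277 CPM in T24 and 1.60 to 2.77 in T24R2). The part of these marker differences in the cell cycle results was not tested. In bulk RNA, fewer cells in a phase of the cycle and less RNA of a gene per cell cannot be told apart.

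As background, the MCM proteins form a ring of 6 subunits that is loaded on origins by CDC6 and CDT1 in G1 and unwinds DNA in S phase. RRM2 and TYMS make deoxynucleotides, PCNA is the clamp of the replicative polymerases, and genes of this kind are switched on by E2F factors at the G1/S boundary. The mitosis genes are transcribed later, in G2 and M, when the DREAM complex gives way to B-MYB and FOXM1, which act through the cell cycle genes homology region (CHR) of their promoters, often beside a CCAAT box bound by NF-Y.

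Most mitosis genes were lower in T24R2, whereas the replication genes were spread on both sides of no change. A gene was called when the edgeR quasi-likelihood test gave an adjusted p under 0.05 over all 16181 genes tested and the absolute log2 fold change (T24R2 minus T24) was over 0.5. All 48 genes passed the count filter, and 29 were called lower, 2 higher and 17 were not called. Of the 35 mitosis genes 26 were called lower (74.3%) and 0 higher, with a median log2 fold change of -0.87. Of the 13 replication genes 3 were called lower (23.1%) and 2 higher (15.4%), with a median of 0.02. Over all genes tested, 26.5% were called lower and 24.9% higher, 51.4% in either direction, around a median of 0.01. The share of replication genes called lower was thus near that of all genes. The medians of the 2 classes were 0.89 apart, which is a description of listed genes and carries no test.

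Separation of the libraries was counted as well. All 5 T24R2 libraries lay below all 5 T24 libraries for 31 of 35 mitosis genes (88.6%) and 5 of 13 replication genes (38.5%), against 31.3% of all genes tested. All T24R2 libraries lay above all T24 libraries for 1 mitosis gene, CENPF, and for 4 replication genes (MCM5, MCM6, MCM7 and TYMS), against 29.9% of all genes. For each gene whose lines were separated, the exact two-sided permutation test of CPM gave p = 0.00794, the smallest value that 5 against 5 libraries allow. CPM are counts scaled to a common library size with TMM factors.

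**Figure D1:**
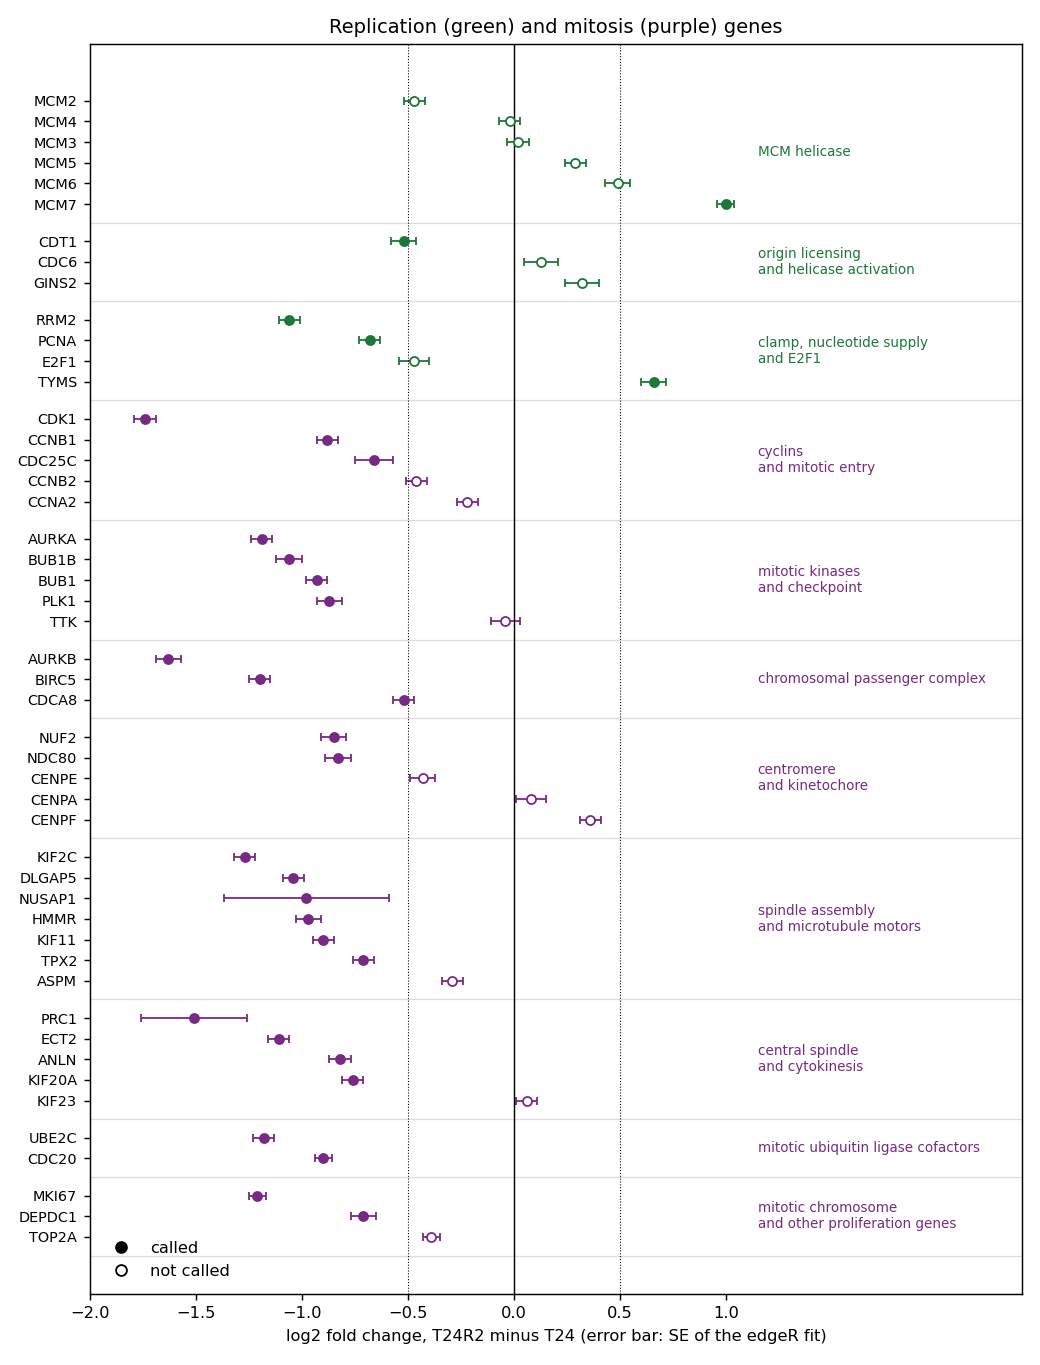
Log2 fold change (T24R2 minus T24, horizontal axis) of each of the 48 genes, grouped by role, with the SE of the edgeR fit as error bars. Green marks the 13 replication genes and purple the 35 mitosis genes, filled circles are called genes, and dotted lines mark 0.5 on either side of 0. The mitosis genes ran from -1.74 for CDK1 to 0.36 for CENPF, and the replication genes from -1.06 for RRM2 to 1.00 for MCM7.

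The summed level of the 35 mitosis genes was 6393, 6511, 6687, 6163 and 6618 CPM in the T24 libraries and 3628, 3846, 4029, 3873 and 3783 CPM in the T24R2 libraries. The lines did not overlap, and the T24R2 mean of 3832 ± 146 CPM (SD, n = 5, here and below) was 59.2% of the T24 mean of 6475 ± 207 CPM. The summed level of the 13 replication genes was 1774, 2049, 1874, 1672 and 1897 CPM in T24 and 1947, 1981, 1979, 1923 and 1921 CPM in T24R2. Here T24 replicate 2 lay above every T24R2 library and the other T24 libraries lay below them. The T24R2 mean of 1950.0 ± 28.8 CPM was 105% of the T24 mean of 1853 ± 141 CPM. Without MCM7 the mean of the sum was lower in T24R2. The other 12 genes summed to 1586 ± 127 CPM in T24 (1423 to 1762) and 1418 ± 26.2 CPM in T24R2 (1395 to 1447), which is 89.4% with overlapping lines. The T24 libraries spread more widely in the replication genes than the T24R2 libraries did, with a median coefficient of variation of 8.53% against 3.96%. For the mitosis genes these values were 4.80% in T24 and 5.65% in T24R2, and for the 8346 tested genes with at least 20 CPM they were 6.33% and 6.55%. T24 replicate 4 lay below its line's mean for all but 4 of the 48 genes, and leaving it out added MCM2 (-0.52) and E2F1 (-0.51) to the replication genes called lower, 5 in place of 3.

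**Figure D2:**
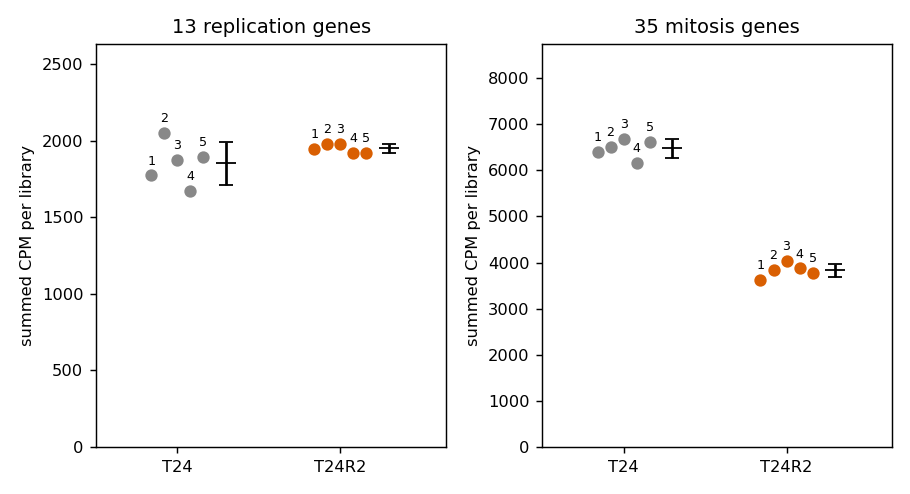
Summed CPM of the 13 replication genes (left) and of the 35 mitosis genes (right) in each library, with replicate numbers above the points and bars for the mean ± SD of 5 libraries. For the mitosis genes the T24R2 libraries (3628 to 4029 CPM) sat below the T24 libraries (6163 to 6687 CPM), and for the replication genes the lines overlapped.

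The promoters of both classes were compared in sequence, because most genes of the mitosis class fell. RefSeq promoter windows (GRCh38.p14, 250 bases before to 50 bases after the start of transcription) matched 41 of the 48 genes, 30 of the mitosis and 11 of the replication class. MCM4, MCM5, AURKA, TTK, BIRC5, TPX2 and UBE2C had no entry. Windows were searched on both strands for the CHR (TTTGAA or TTCGAA), the CCAAT box (CCAAT) and an E2F site (TTGGCGC or TTCCCGC). No motif is contained in another, but matches of different motifs shared bases in 4 of the 41 windows (MCM7, CDCA8, ECT2 and MKI67). In MKI67 a CHR and a CCAAT box shared 1 base. The 250 upstream bases of 3 called mitosis genes, of TOP2A, a mitosis gene not called, and of 2 replication genes are shown as examples. No exon of the tables lies in them and their starts equal those of the tables. CDC25C, CCNA2, CENPF, CDC6 and E2F1 also met this rule and are not shown. Of the mitosis genes among these, CDC25C, called lower, had neither a CHR nor a CCAAT box match. CCNA2, not called, had no CHR match, and CENPF, not called, had both motifs. The sequences are written 5′ to 3′ in the direction of the gene, with motif matches in capitals.
CDK1, chr10:60778081-60778330, plus strand: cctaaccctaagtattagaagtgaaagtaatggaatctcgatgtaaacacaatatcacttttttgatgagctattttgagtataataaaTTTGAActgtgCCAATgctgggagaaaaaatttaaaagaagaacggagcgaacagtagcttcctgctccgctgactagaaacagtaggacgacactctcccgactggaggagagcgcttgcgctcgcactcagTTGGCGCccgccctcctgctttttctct
MKI67, chr10:128126424-128126673, minus strand: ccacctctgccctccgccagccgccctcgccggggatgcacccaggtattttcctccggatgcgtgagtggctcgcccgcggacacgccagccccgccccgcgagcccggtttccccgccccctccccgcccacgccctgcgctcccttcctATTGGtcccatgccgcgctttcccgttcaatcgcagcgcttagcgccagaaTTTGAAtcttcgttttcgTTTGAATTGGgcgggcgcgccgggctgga
CDC20, chr1:43358731-43358980, plus strand: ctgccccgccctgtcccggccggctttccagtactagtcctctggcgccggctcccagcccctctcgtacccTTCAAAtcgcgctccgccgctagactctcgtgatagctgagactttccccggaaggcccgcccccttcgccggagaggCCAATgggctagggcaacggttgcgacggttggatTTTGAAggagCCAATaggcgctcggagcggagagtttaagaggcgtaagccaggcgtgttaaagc
TOP2A, chr17:40417897-40418146, minus strand: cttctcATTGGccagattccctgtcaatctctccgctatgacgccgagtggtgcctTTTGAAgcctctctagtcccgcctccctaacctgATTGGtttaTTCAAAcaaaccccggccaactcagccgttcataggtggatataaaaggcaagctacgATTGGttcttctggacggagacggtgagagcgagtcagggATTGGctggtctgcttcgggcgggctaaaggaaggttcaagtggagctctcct
CDT1, chr16:88803539-88803788, plus strand: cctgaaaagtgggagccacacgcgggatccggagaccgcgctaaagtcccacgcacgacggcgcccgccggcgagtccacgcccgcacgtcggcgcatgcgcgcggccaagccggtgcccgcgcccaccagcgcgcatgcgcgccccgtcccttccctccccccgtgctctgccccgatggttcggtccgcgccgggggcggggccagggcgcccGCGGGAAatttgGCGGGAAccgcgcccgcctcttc
MCM6, chr2:135876444-135876693, minus strand: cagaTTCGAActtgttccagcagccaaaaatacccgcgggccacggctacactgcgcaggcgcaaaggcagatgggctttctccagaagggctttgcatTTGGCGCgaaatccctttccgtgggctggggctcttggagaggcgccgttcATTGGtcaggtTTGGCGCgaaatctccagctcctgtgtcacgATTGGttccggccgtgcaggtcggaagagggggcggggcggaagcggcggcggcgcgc

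A CHR match was found in 23 of 30 mitosis promoters (76.7%) and in 1 of 11 replication promoters (9.09%, MCM6), against 16.6% of the 27305 promoters of the table and 11.3% of the 11061 whose genes were tested. E2F matches went the other way, with 9 of 11 replication promoters (81.8%) and 5 of 30 mitosis promoters (16.7%). They were in 9.33% of all promoters and in 14.5% of those of tested genes, so that the mitosis share was near that of tested genes. The CCAAT box was found at similar shares in both classes, in 23 of 30 (76.7%) and 8 of 11 (72.7%), against 35.7% of all promoters and 36.7% of those of tested genes. A CHR and a CCAAT box together were in 19 of 30 mitosis promoters (63.3%), in 6.58% of all promoters and in 4.83% of those of tested genes. In CDK1 the CHR match began 161 bases and the CCAAT box 150 bases before the start, and an E2F match lay 28 bases before it. CDT1 had E2F matches 35 and 23 bases before its start and neither of the other motifs.

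Among the mitosis genes, the motifs did not separate those that were called lower from those that were not. A CHR match was in 17 of 22 promoters of genes called lower (77.3%) and in 6 of 8 promoters of genes not called (75%). The CCAAT box was in 16 of 22 (72.7%) and in 7 of 8 (87.5%), and the E2F match in 4 of 22 (18.2%) and 1 of 8 (12.5%). The replication genes RRM2 and MCM2 had no E2F match in this window, while CDT1, PCNA, MCM7 and TYMS each had at least 1. These matches describe letters in a window and do not show binding.

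**Figure D3:**
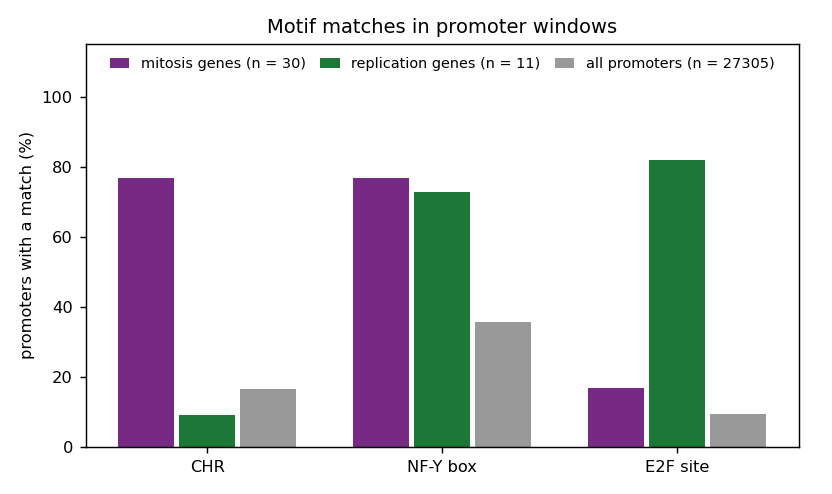
Share of promoter windows with at least 1 match on either strand (vertical axis, percent) for the CHR, the CCAAT box bound by NF-Y (NF-Y box) and the E2F site. The bars for 30 mitosis genes and 11 replication genes stand beside those of all 27305 promoters, and the CHR (76.7% against 9.09%) and the E2F site (16.7% against 81.8%) had opposite orders in the 2 classes.

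The 6 MCM subunits, which form 1 helicase, did not move together. MCM7 (chr7:100092728-100101940, minus strand) rose to 1.99 times its T24 level. Its libraries held 262, 287, 267, 248 and 271 CPM in T24 and 552, 534, 533, 522 and 521 CPM in T24R2. The lines were far apart (267 ± 14.1 against 532 ± 12.5 CPM, log2 fold change 1.00 ± 0.04, edgeR adjusted p = 7.9e-23). MCM4 held 208, 248, 216, 202 and 226 CPM in T24 and 211, 216, 227, 219.5 and 212 CPM in T24R2. The lines overlapped (log2 fold change -0.02 ± 0.05, edgeR adjusted p = 0.71), and its difference was 0.14 without TMM scaling. MCM3 overlapped as well (log2 fold change 0.02). MCM6 (0.49) and MCM5 (0.29) were higher and MCM2 (-0.47) was lower in T24R2 without overlap, but under the minimum of 0.5. MCM6 was called under no scaling (0.65), upper-quartile scaling (0.56) and a mean of at least 100 counts (0.52), and without T24 replicate 2 (0.54), T24 replicate 5 (0.51) or T24R2 replicate 2 (0.50). Per kilobase of exon, the level of the subunits in T24 ran from 18.8 CPM for MCM6 and 19.2 for MCM5 to 39.8 for MCM2 and 60.9 for MCM7. In T24R2 it ran from 23.4 for MCM5 and 26.4 for MCM6 to 35.4 for MCM3 and 121 for MCM7, the highest per kilobase of all 48 genes in that line. Exon length covers all annotated exons of a gene (7268 bases for MCM5 and 4386 for MCM7), so this order depends on the annotation as well.

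MCM7 shares 8.94% of its exon bases with AP4M1 on the opposite strand, and AP4M1 had a log2 fold change of 1.05. MCM2 shares 23.6% with ENSG00000285600.1, which was at -0.52. The tables were counted with strand option 1, but the library kit is not described as marking strand, so reads of opposite-strand partners cannot be told apart.

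Of the genes that license origins or activate the helicase, CDT1, which brings the MCM ring to DNA, fell to 69.9% of its T24 level. Its libraries held 101, 108, 101, 96.6 and 101 CPM in T24 and 77.4, 71.8, 69.4, 73.2 and 62.5 CPM in T24R2, with no overlap (log2 fold change -0.52 ± 0.06, edgeR adjusted p = 7.8e-11). This call was close to the minimum and was lost with no scaling (-0.35), upper-quartile scaling (-0.44), a mean of at least 100 counts (-0.49) and without T24 replicate 2 (-0.50) or T24R2 replicate 5 (-0.47). CDC6, the loader that acts with CDT1, held 47.1, 62.5, 55.1, 44.6 and 49.7 CPM in T24 and 53.9, 62.1, 63.8, 53.8 and 49.3 CPM in T24R2. The lines overlapped (log2 fold change 0.13 ± 0.08, edgeR adjusted p = 0.13). GINS2, a subunit of the active helicase, was at 0.32 ± 0.08, not called.

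The genes of nucleotide supply differed in direction. RRM2, the small subunit of ribonucleotide reductase, held 252, 286, 266, 229.8 and 278 CPM in T24 and 117, 137, 117, 128 and 127 CPM in T24R2. It fell to 47.8% (log2 fold change -1.06 ± 0.05, edgeR adjusted p = 1.4e-20), the largest fall of the replication class. TYMS, thymidylate synthase, rose to 158% of its T24 level (123 ± 12.2 to 194 ± 12.1 CPM, log2 fold change 0.66 ± 0.06, edgeR adjusted p = 1.3e-13). TYMS shares 47.5% of its exon bases with ENOSF1 and TYMSOS on the opposite strand, which were at 0.58 and 0.84, and its removal with other such overlaps left MCM7 as the only member called higher. PCNA held 192, 215, 206, 189.9 and 201 CPM in T24 and 118, 120.1, 137, 125 and 128 CPM in T24R2. It fell to 62.5% without overlap (log2 fold change -0.68 ± 0.05, edgeR adjusted p = 1.4e-15). E2F1, the G1/S activator, held 56.2, 76.6, 61.9, 56.7 and 62.2 CPM in T24 and 47.8, 45.8, 45.9, 44.2 and 43.2 CPM in T24R2. All T24R2 libraries lay below T24, but the difference was under the minimum (log2 fold change -0.47 ± 0.07, edgeR adjusted p = 1.6e-07), and it was called without T24 replicate 1 (-0.51) or T24 replicate 4 (-0.51).

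**Figure D4:**
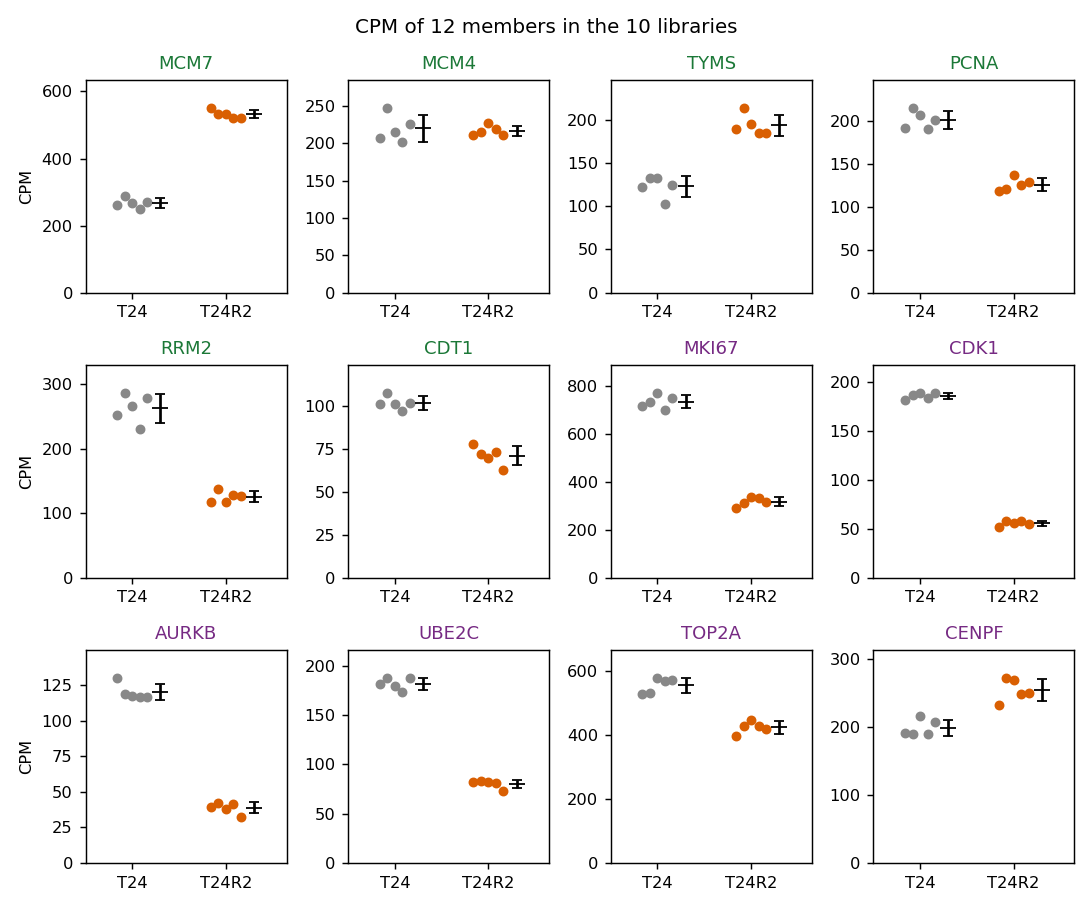
CPM (vertical axes, from 0) of 12 genes in each of the 5 T24 and 5 T24R2 libraries, with the mean ± SD beside the points. Green titles are replication genes and purple titles mitosis genes. MCM7, TYMS and CENPF lay higher in T24R2, MCM4 overlapped, and the other 8 genes lay lower in T24R2 in every library.

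The genes of mitotic entry were all lower in T24R2, 3 of 5 of them past the call. CDK1 (chr10:60778331-60794852, plus strand), the kinase that drives entry into mitosis, had the largest fall of the 48 genes. Its libraries held 182, 186, 189, 183 and 188 CPM in T24 and 51.9, 58.3, 55.9, 57.6 and 54.5 CPM in T24R2. The mean went from 186 ± 3.15 to 55.6 ± 2.57 CPM, 3.33-fold lower (log2 fold change -1.74 ± 0.05, edgeR adjusted p = 5.1e-29). Its cyclin partners differed by less. CCNB1, cyclin B1, was at -0.88 and was called, while CCNB2 was at -0.46 and was not. CCNA2, cyclin A2, held 125, 133, 144, 128 and 133 CPM in T24 and 102, 121, 123, 112 and 111 CPM in T24R2. The lines did not overlap, but T24R2 kept 85.9% of the T24 level (log2 fold change -0.22 ± 0.05, edgeR adjusted p = 0.00032). CDC25C, the phosphatase that activates CDK1, was at -0.66 and lost its call with no scaling (-0.49).

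Of the mitotic kinases and checkpoint genes, 4 of 5 fell. AURKA, which matures centrosomes and spindle poles, held 227, 234, 226, 216 and 232 CPM in T24 and 98.6, 105, 101, 92.7 and 101 CPM in T24R2. It fell to 43.9% (log2 fold change -1.19 ± 0.05, edgeR adjusted p = 3.5e-24). PLK1 (-0.87), BUB1 (-0.93) and BUB1B (-1.06) fell as well. PLK1 shares 12.8% of its exon bases with opposite-strand genes and BUB1B shares 5.38% with PAK6 on its own strand. TTK, the checkpoint kinase also called MPS1, held 60.5, 57.9, 63.0, 55.9 and 62.6 CPM in T24 and 50.5, 52.4, 65.5, 65.2 and 57.6 CPM in T24R2. The lines overlapped (log2 fold change -0.04 ± 0.07, edgeR adjusted p = 0.57), and the sign turned with no scaling (0.12) and upper-quartile scaling (0.03).

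All 3 listed genes of the chromosomal passenger complex, which corrects attachments of microtubules to kinetochores, were called lower. AURKB (chr17:8204733-8210600, minus strand), its kinase, held 130.4, 119, 118, 117 and 117 CPM in T24 and 39.3, 42.5, 37.6, 41.6 and 32.6 CPM in T24R2. It was 3.10-fold lower in T24R2 (log2 fold change -1.63 ± 0.06, edgeR adjusted p = 7.1e-25). BIRC5, survivin, fell by 1.20 on the log2 scale. CDCA8, borealin, held 92.8, 94.2, 102, 90.5 and 92.7 CPM in T24 and 62.8, 66.1, 67.1, 66.2 and 66.1 CPM in T24R2. It fell to 69.6% (log2 fold change -0.52 ± 0.05, edgeR adjusted p = 1.5e-11), close to the minimum, and lost the call with no scaling (-0.36), upper-quartile scaling (-0.45) and a mean of at least 100 counts (-0.49). These 3 genes thus fell by different amounts, from 32.2% to 69.6% of the T24 level. INCENP, a further subunit of the complex that was counted among the further mitotic genes, was at -0.40 and was not called.

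Centromere and kinetochore genes were mixed, with 2 of 5 called. NUF2, which pairs with NDC80 to hold microtubules, held 89.8, 95.9, 98.0, 94.7 and 94.9 CPM in T24 and 46.7, 54.9, 55.6, 52.6 and 53.7 CPM in T24R2. It fell to 55.6% (log2 fold change -0.85 ± 0.06, edgeR adjusted p = 1.1e-16), and its partner NDC80 also fell (-0.83). CENPA, the histone variant that marks centromeres, held 33.7, 33.0, 31.6, 30.6 and 32.4 CPM in T24 and 34.96, 35.1, 31.7, 36.4 and 32.2 CPM in T24R2. The lines overlapped (log2 fold change 0.08 ± 0.07, edgeR adjusted p = 0.33), and CENPA shares 7.08% of its exon bases with SLC35F6 on the same strand. The kinetochore motor CENPE was at -0.43, separated but under the minimum. CENPF, a large protein of the outer kinetochore, was higher in every T24R2 library (198 ± 12.0 against 254 ± 16.2 CPM, log2 fold change 0.36). It was under the minimum of 0.5 and among the alternatives was called only with no scaling (0.52) or with no fold change minimum.

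Of 7 genes of spindle assembly and microtubule motors, 6 were called lower. KIF2C, a kinesin that takes microtubules apart, held 248, 234, 242, 219.7 and 249.9 CPM in T24 and 97.8, 96.8, 104, 92.0 and 105 CPM in T24R2. It fell to 41.5% (log2 fold change -1.27 ± 0.05, edgeR adjusted p = 1.6e-24). ASPM, which acts at spindle poles, held 165, 164, 174, 162 and 169.8 CPM in T24 and 123, 145, 135, 144 and 136 CPM in T24R2. The lines did not overlap but T24R2 kept 81.8% (log2 fold change -0.29 ± 0.05, edgeR adjusted p = 1.4e-06). DLGAP5 (-1.04), HMMR (-0.97), the spindle motor KIF11 (-0.90) and TPX2 (-0.71), the activator of AURKA, lay between them. NUSAP1 was called at -0.98 ± 0.39 on a mean of 9.2 counts. It shares 81.4% of its exon bases with ENSG00000285920.2 on the same strand, and the deposited counts hold no fragment that fits both, so its level is uncertain and its call was lost in several alternatives.

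Of 5 genes of the central spindle and cytokinesis, 4 were called lower. PRC1, which bundles microtubules of the central spindle, held 4.05, 4.63, 3.66, 3.12 and 4.43 CPM in T24 and 1.47, 1.30, 0.960, 1.25 and 1.97 CPM in T24R2. The fold change (log2 fold change -1.51 ± 0.25, edgeR adjusted p = 1.4e-06) rests on a mean of 26 counts. PRC1 shares 57.6% of its exon bases with ENSG00000284946.1 on the same strand, which was at -0.78, and 34.3% with PRC1-AS1 on the opposite strand, which was at -0.74. Its level is therefore uncertain. ECT2 (-1.11), which starts the cleavage furrow, anillin ANLN (-0.82) and the kinesin KIF20A (-0.76) fell. KIF23, a kinesin of the central spindle, held 166, 161, 180.0, 147 and 164 CPM in T24 and 165, 165, 182, 174 and 166 CPM in T24R2. The lines overlapped (log2 fold change 0.06 ± 0.05, edgeR adjusted p = 0.29). NUSAP1 and PRC1 were left out in an alternative that was added once the data had been seen, and then 24 of 33 mitosis genes were called lower with a median of -0.85.

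Both listed cofactors of the mitotic ubiquitin ligase fell. UBE2C, its ubiquitin-conjugating enzyme, held 182, 187, 180.1, 173 and 188 CPM in T24 and 82.2, 83.1, 82.2, 81.5 and 73.2 CPM in T24R2. It fell to 44.2% (log2 fold change -1.18 ± 0.05, edgeR adjusted p = 2e-23). CDC20, its activator, held 304, 331, 321, 291 and 320.1 CPM in T24 and 168, 169.7, 170.5, 163 and 167 CPM in T24R2. It fell to 53.5% (log2 fold change -0.90 ± 0.04, edgeR adjusted p = 5.6e-21).

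MKI67, which encodes the proliferation marker Ki-67, a protein that coats mitotic chromosomes, held 719.5, 735, 774, 702 and 752 CPM in T24 and 292, 312, 336, 334 and 319 CPM in T24R2. It fell to 43.2% of its T24 level (log2 fold change -1.21 ± 0.04, edgeR adjusted p = 2.3e-25). TOP2A, the topoisomerase that untangles sister chromatids, held 529, 532, 579.8, 569 and 572 CPM in T24 and 396, 429, 448, 428 and 419 CPM in T24R2. All T24R2 libraries lay below T24, but T24R2 kept 76.2% and the difference was under the minimum (log2 fold change -0.39 ± 0.04, edgeR adjusted p = 1.2e-10). DEPDC1 fell to 61.0% (-0.71). Of genes often used as proliferation markers, MKI67 and PCNA thus passed the call, and TOP2A and MCM2 were lower without passing it. Other listed genes went the other way. MCM7 (1.00) and TYMS (0.66) were called higher, and MCM6 (0.49) and MCM5 (0.29) were higher without passing the call.

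Compared per kilobase of exon, the highest levels in T24 were those of CDC20 (156 CPM per kb), PCNA (143), UBE2C (142), TPX2 (131) and CCNB1 (124). In T24R2 the order was MCM7 (121), PCNA (89.5), CDC20 (83.3), TPX2 (80.2) and TYMS (80.0). CDK1 went from place 16 of 48 to place 35, AURKB from 12 to 28 and MKI67 from 10 to 23. These places are descriptions of levels and not of differences, and they depend on the annotated exon length as well.

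Members were also set beside the tested genes around them, since neighbouring genes can shift together between lines. The mitosis genes lay below their neighbours, with a median of -0.70 between a member and the median of tested genes within 5 Mb, and 24 of 35 lay more than 0.5 below and 0 more than 0.5 above. With 2 Mb the median was -0.75 (25 below, 1 above) and with the whole chromosome -0.87 (26 below, 0 above). The replication genes lay close to their neighbours, with a median of -0.04, 2 of 13 more than 0.5 below and 2 above. With 2 Mb the median was -0.03 (2 below, 0 above) and with the whole chromosome -0.03 (1 below, 2 above). The share of all tested genes that lay more than 0.5 from their own neighbours was not computed. The counts of both classes therefore stand without a background. TYMS lay 0.81 above its 31 neighbours within 5 Mb, whose median was -0.15, but 0.03 below its 11 neighbours within 2 Mb, whose median was 0.69. MCM7 rose in a stretch of chromosome 7 whose 118 tested neighbours had a median of 0.70, and lay 0.29 above them. PCNA lay 0.04 below the 73 neighbours on chromosome 20, whose median was -0.64. ECT2, at -1.11, stood in a stretch of chromosome 3 with a median of -0.95 over 22 genes within 5 Mb, 0.16 below it. Within 2 Mb the median of its 7 neighbours was -1.73, so that ECT2 lay 0.62 above them and was the 1 mitosis gene above its neighbours in that window. BIRC5, at -1.20, stood in a stretch of chromosome 17 with a median of -0.81 over 193 genes. By contrast the neighbours of AURKB (150 genes, -0.04), RRM2 (28 genes, 0.03) and UBE2C (83 genes, 0.03) had medians near 0. Those of CDK1 (20 genes) had a median of -0.24, on a chromosome whose tested genes had a median of -0.29. The part of regional shifts in each gene's difference was not tested.

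**Figure D5:**
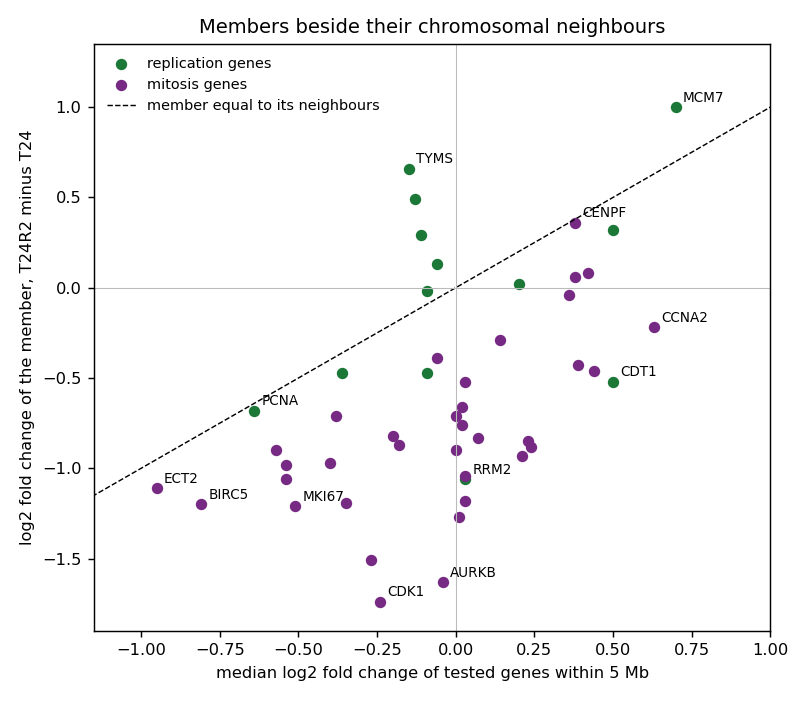
Log2 fold change of each of the 48 genes (vertical axis) against the median of its tested neighbours within 5 Mb (horizontal axis). The dashed line marks a gene equal to its neighbours. 24 of 35 mitosis genes (purple) lay more than 0.5 below their neighbours, a count without a share over all tested genes. MCM7 lay in the stretch with the highest median, 0.70.

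Other genes of the same pathways were counted in the same fit. Of 54 further mitotic genes, 28 were called lower and 1 higher with a median of -0.54. The largest falls were PTTG1, securin (-1.53), and CCNF, cyclin F (-1.34), and the rise was SKA1, a kinetochore gene (0.63). Of 44 further replication genes, 13 were called lower and 1 higher with a median of -0.16. The share called lower was near the 26.5% of all genes, and the share called higher was below their 24.9%. Log2 fold changes were negative for 29 of the 44 and positive for 15, against 7954 and 8227 of all genes tested. TK1, thymidine kinase (-1.47), and RRM1, the large subunit of the reductase (-1.19), fell most, so that both listed subunits of ribonucleotide reductase, RRM1 and RRM2, were called lower. CCNE1, cyclin E1, was the 1 called higher (0.86). Of 9 genes of origin recognition and the cohesin core, 0 were called lower and 4 higher (median 0.12), against 26.5% and 24.9% of all genes tested. The largest rises were those of ORC5 (1.27) and SMC1A (0.65).

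Among the regulators, 20 cell cycle transcription factors and DREAM genes were counted, of which 3 were called lower and 3 higher with a median of 0.09. Both counts were below the shares of all genes tested, 26.5% lower and 24.9% higher. TFDP1, the dimer partner of E2F factors (-1.40), and the repressor E2F7 (-1.38) fell most, and E2F3 (0.73) and LIN37 (0.57) rose most. LIN37, at an edgeR adjusted p of 0.048 and 2.87 ± 0.566 CPM in T24R2, lost its call in several alternatives. FOXM1 (0.21) and MYBL2, which encodes B-MYB (-0.19), the factors that act at CHR promoters, were not called. Of 15 core genes of the anaphase promoting complex and its activator FZR1, 3 were called lower and 3 higher (median -0.05), also below those shares. The subunits CDC16 (-1.35) and ANAPC11 (-0.93) fell and CDC27 (1.29) and ANAPC1 (0.53) rose, while the cofactors UBE2C and CDC20 of the listed genes fell.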

How the data were processed

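RNA-seq libraries of T24 and T24R2, 5 of each, were analysed. The authors used STAR (2.7.0) for alignment against hg38, SAMtools (1.10) to drop duplicates and reads with several placements, and featureCounts (2.0.1, strand option 1) to assign fragments to genes of GENCODE release 39. The deposited values are raw counts per gene, neither normalized nor pooled. Removal of duplicates can lower counts of abundant transcripts, and fragments that fit more than 1 gene were not counted.

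The counts were fitted on all 16181 genes passing filterByExpr in edgeR 4.0.16 (R 4.3.3) with TMM normalization, glmQLFit and glmQLFTest, with the cell line as the only term and Benjamini-Hochberg adjustment. The biological coefficient of variation was 6.61% and TMM factors were 0.936 to 1.07. Calls needed an adjusted p below 0.05 together with a log2 fold change beyond 0.5 in either direction. Log2 fold changes are given ± SE and CPM ± SD. Intervals and spreads cover these libraries only. Exon overlaps came from bedtools 2.31.1, and Python 3.11.15 was used with pandas 2.3.3, SciPy 1.17.1 and matplotlib 3.10.9. The fit was tested on simulated data.

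The genes, roles and further lists were chosen with earlier results of these data known. Values in every library are given for the genes with the largest and the smallest absolute log2 fold change of each of 11 role groups, and for MKI67, TOP2A, PCNA and CDK1. Of each further list, the 2 largest rises and the 2 largest falls among called genes are named. FOXM1, MYBL2, INCENP and the genes of overlaps were named after their values were seen. Alternatives were other scalings, DESeq2 1.42.0, limma-voom (limma 3.58.1), other count filters and thresholds, removal of mitochondrial genes or of genes with opposite-strand overlaps over 10%, a replicate block and leaving out each library. The MeRIP-seq libraries were not used here.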

Additional observations from a re-analysis of the deposited data

Results flagged for a closer look

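In 6 of 96 groups of 5 libraries (48 genes in 2 lines), 1 library lay far from the other 4 by Dixon's test. Chance gives about 4.8. MCM6 was 113.8 CPM in T24R2 replicate 3 against 107.3 to 109 in the others, and PLK1 was 130.9 CPM in the same library against 106.4 to 111.3. AURKB was 130.4 CPM in T24 replicate 1 against 116.7 to 119.1. CDCA8 was 62.76 CPM and HMMR 47.71 CPM in T24R2 replicate 1, against 66.06 to 67.09 and 58 to 62. UBE2C was 73.16 CPM in T24R2 replicate 5 against 81.53 to 83.14. In each of these genes but MCM6, which was not called, the call lower in T24R2 was kept without that library.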

How the results depend on the processing

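Of 1098 values of the 48 genes under the alternatives, 1034 kept their direction and their side of the call, 33 lost the call, 21 gained it and 10 changed sign, and 15 genes kept theirs under every alternative that held them. The gap between the class medians stayed at 0.84 to 0.93 under all of them. Without scaling, the median of all genes rose by 0.16 to 0.18, 5206 genes were called higher and 3431 lower (4027 and 4282 with TMM), and 4 members (1 mitosis gene, CENPF) were called higher, with medians of 0.19 for replication and -0.71 for mitosis. Upper-quartile scaling gave a mitosis median of -0.80, and a mean of at least 100 counts, which leaves out NUSAP1 and PRC1, gave -0.82 and 4991 called genes.

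With no fold change minimum, 6 members were called higher (5 replication genes, 1 mitosis gene) and 5 replication genes lower, and the further lists had 32 replication, 45 mitotic, 14 transcription factor and 10 anaphase promoting complex genes called, of 44, 54, 20 and 15. Over all genes 75.5% were called at that threshold (37.6% lower and 37.9% higher). The shares of these further lists, but that of the mitotic genes, were thus below the background. Those of the 13 listed replication genes, 5 in each direction, were near it. With a minimum of 1, 4211 genes were called (26% of all genes, 14.2% lower and 11.9% higher). Of the members, 12 were called lower (1 replication and 11 mitosis genes) and 0 higher (0 replication genes). The further lists had 3 replication, 7 mitotic, 3 transcription factor, 2 anaphase promoting complex and 1 origin or cohesin gene called, of 44, 54, 20, 15 and 9. All these list shares were below 26%. The 7 mitotic genes were all lower, a share near the 14.2% of all genes. With opposite-strand overlaps removed, 1 member (1 replication gene) was called higher. Without 1 replicate, 2 to 5 replication genes were called lower (5 without T24 replicate 4) and the mitosis median was -0.90 to -0.80 (-0.80 without T24R2 replicate 1).

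Small differences turned sign. MCM4 was at 0.14 with no scaling, 0.05 with upper-quartile scaling, 0.01 with a mean of at least 100 counts and ran from -0.06 to 0.02 without 1 replicate (0.02 without T24 replicate 2). MCM3 ran from -0.01 to 0.07 without 1 replicate (-0.01 without T24 replicate 1, -0.00 without T24 replicate 4). TTK was at 0.12 with no scaling and 0.03 with upper-quartile scaling, and ran from -0.08 to 0.01 without 1 replicate (0.01 without T24R2 replicate 1, 0.00 without T24R2 replicate 2). NUSAP1 lost its call with no scaling (-0.82), no count filter (-0.99) as well as in the absence of T24 replicate 2 (-0.89) and of T24R2 replicates 1 (-0.79) and 3 (-0.76). Beyond the alternatives' own construction, the cause of these changes was not tested.

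The labels number the replicates of both lines 1 to 5. Same-numbered libraries did not deviate together (correlations across genes of -0.021 to 0.0155). No shared shift by number was thus seen, but this cannot tell whether same-numbered libraries were handled together. A replicate block called 8240 genes, 29 members lower and 2 higher (3 and 2 replication genes, 26 and 0 mitosis genes), with medians of 0.02 and -0.87, a gap of 0.90 and no member's call changed. Under the block 5 of the transcription factor genes were called, without LIN37, which also lost its call without T24 replicate 1, 3 or 5 or T24R2 replicate 1, 4 or 5. The values of NUSAP1 and PRC1 rest on few counts, with means of 9.2 and 26. What keeps these counts low was not tested.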
